A study of Arabidopsis thaliana with 2 samples.

Results

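Plant receptor kinases with a lectin-like or a wall-binding outer domain were followed in young Arabidopsis leaves that carried an overexpression transgene. Members were taken from the probe descriptions of the array: those that name a kinase together with lectin, wall-associated or wall associated, but neither leucine-rich nor cysteine-rich. The brightest member probe stood for each locus, with probes flagged as measured on both arrays placed first. This gave 103 genes of the 26374 genes with a locus on the array, 77 of them lectin kinases and 26 wall-associated kinases. The lectin kinases comprised 43 L-type genes, 31 G-type genes, 1 C-type gene and 2 malectin genes, which matched because their name contains the word lectin. The wall-associated kinases comprised WAK1 to WAK5, 20 WAK-like genes and 1 gene described as wall-associated with a RING finger, AT5G53110.

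Receptor kinases of these classes sit in the plasma membrane with the sensing domain outside the cell and a kinase domain inside it. AT5G53110 was taken by its description alone, and whether it has a kinase domain was not looked at here. L-type kinases resemble the lectins of legume seeds, G-type kinases have a bulb-type lectin domain and the domains of the self-incompatibility S-locus kinases, and wall-associated kinases reach into the cell wall, where some of them bind pectin. Several are known in Arabidopsis as sensors of nucleotides released from cells, of bacterial fatty acids or of pectin fragments, and act in leaf immunity.

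The transgenic leaves were of genotype 35S:NROB #2, in which the viral 35S promoter, active in most plant tissues, drives a gene that the labels call NROB without spelling the name out. They were compared with wild-type leaves of the same accession, Columbia-0, grown in the same kind of greenhouse, and all leaves were of day 30. RNA of 1 transgenic sample (Cy3) and of 1 wild-type sample (Cy5) was hybridised together on each of 2 two-colour Agilent arrays, numbered 1 and 2 as biological replicates in the labels. The labels give 1 transgenic genotype and do not say how many plants went into a sample, so the transgene and the single transgenic label cannot be told apart. Because the dyes were not swapped, a dye effect of a probe and a difference between genotypes cannot be told apart either.

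Intensities are the authors' normalized values on a linear scale, and every ratio is a log2 ratio of 35S:NROB #2 over wild type, so a positive value means higher in 35S:NROB #2. Values are given as mean ± SD over the 2 arrays, and p-values measure the spread between these samples. Of the genes with a locus, 16955 had a probe with the deposited flag P on both arrays and were tested. Median intensities of the gene spots with that flag were 863 and 992 in 35S:NROB #2, and 861 and 989 in wild type. The 5 leaf markers (RBCS1A, RCA, LHCB1.1, CA1 and GAPB) had intensities of 73402 to 224699 in 35S:NROB #2 and 78430 to 208600 in wild type, with mean log2 ratios of -0.29 to 0.21. None of the 4 root, 3 flower and 2 seed markers had the flag P on both arrays. The flower markers summed to 81.1 and 157 in 35S:NROB #2, against 56.9 and 77.8 in wild type, the largest part of the gap coming from PI at 28.9 and 90.2 against 6.21 and 7.49, and their part in the results was not tested. In whole leaves, fewer cells of a type and less RNA per cell cannot be told apart.

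Of the 103 kinases, 64 had the flag P on both arrays, 50 lectin and 14 wall-associated genes. The flag asks for signal in both channels, so a gene silent in 1 genotype is lost here, and counts over the 64 describe the measured genes alone. The study's own rule of a mean change over 2-fold, with both arrays also on the same side of 0, was met by 17 of the 64 (26.6%), all higher in 35S:NROB #2. Over all genes tested, 4.82% were higher and 2.84% lower by that rule. The 64 genes had a median log2 ratio of 0.41, against -0.03 over all genes tested. Of the 64, 46 were higher on both arrays and 10 lower on both, where 37.8% and 43.3% of all genes tested were so.

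The test was limma on the whole table, with a call at a Benjamini-Hochberg adjusted p under 0.05. It called 1 kinase, LecRK-I.8, as higher and none as lower, beside 0.236% of all genes called higher and 0.0177% called lower. Before adjustment, limma gave 35 higher and 6 lower kinases a p under 0.05, where 15.5% and 17.6% of all genes tested had one. Another 12 kinases, all higher, had limma adjusted p-values between 0.05 and 0.06, as did 2.64% of all genes tested on the higher side. With 2 arrays the fit had 1 residual degree of freedom, which limits its precision, and small changes in processing moved many of these genes across the threshold.

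Median centring called 13 kinases higher (background 3.12%), loess within arrays 13 (3.02%), an offset of 50 on the intensities 12 (3.08%) and the mean of a locus's probes 12 (2.72%), all by limma. With no flag filter 20 kinases were called higher (4.14%) and 1 lower (1.67%), and with the channels unpaired 24 were higher (8.69%) and 2 lower (8.66%). Without the lower quartile of intensity 2 kinases were called higher (1.85%), and with genes flagged P on at least 1 array limma called 0 (0.147%). The fold rule gave no lower kinase in most of these settings. Exceptions were 2 lectin and 1 wall-associated kinases with no flag filter (4.26%), 1 lectin kinase with genes flagged P on at least 1 array (3.53%) and 1 lectin kinase on array 2 alone (6.1%).

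Ratios were larger in size on array 2 in 51 of the 64 kinases and in 16 of the 17 that met the fold rule. The share of all genes tested with the larger ratio on array 2 was not counted. Among all genes past the fold rule, higher or lower, the log2 ratio on array 2 was at the median 1.55 times that on array 1. For all genes tested, 3.41% were more than 2-fold higher on array 1 alone and 6.95% on array 2 alone. The 17 kinases also had low signal, 14 of them in the lower quartile of mean intensity of all genes tested, where 30 of the 64 lay. With that quartile left out, 3 of 27 lectin kinases and 0 of 7 wall-associated kinases met the fold rule, against 3.66% of all genes.

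**Figure D1:**
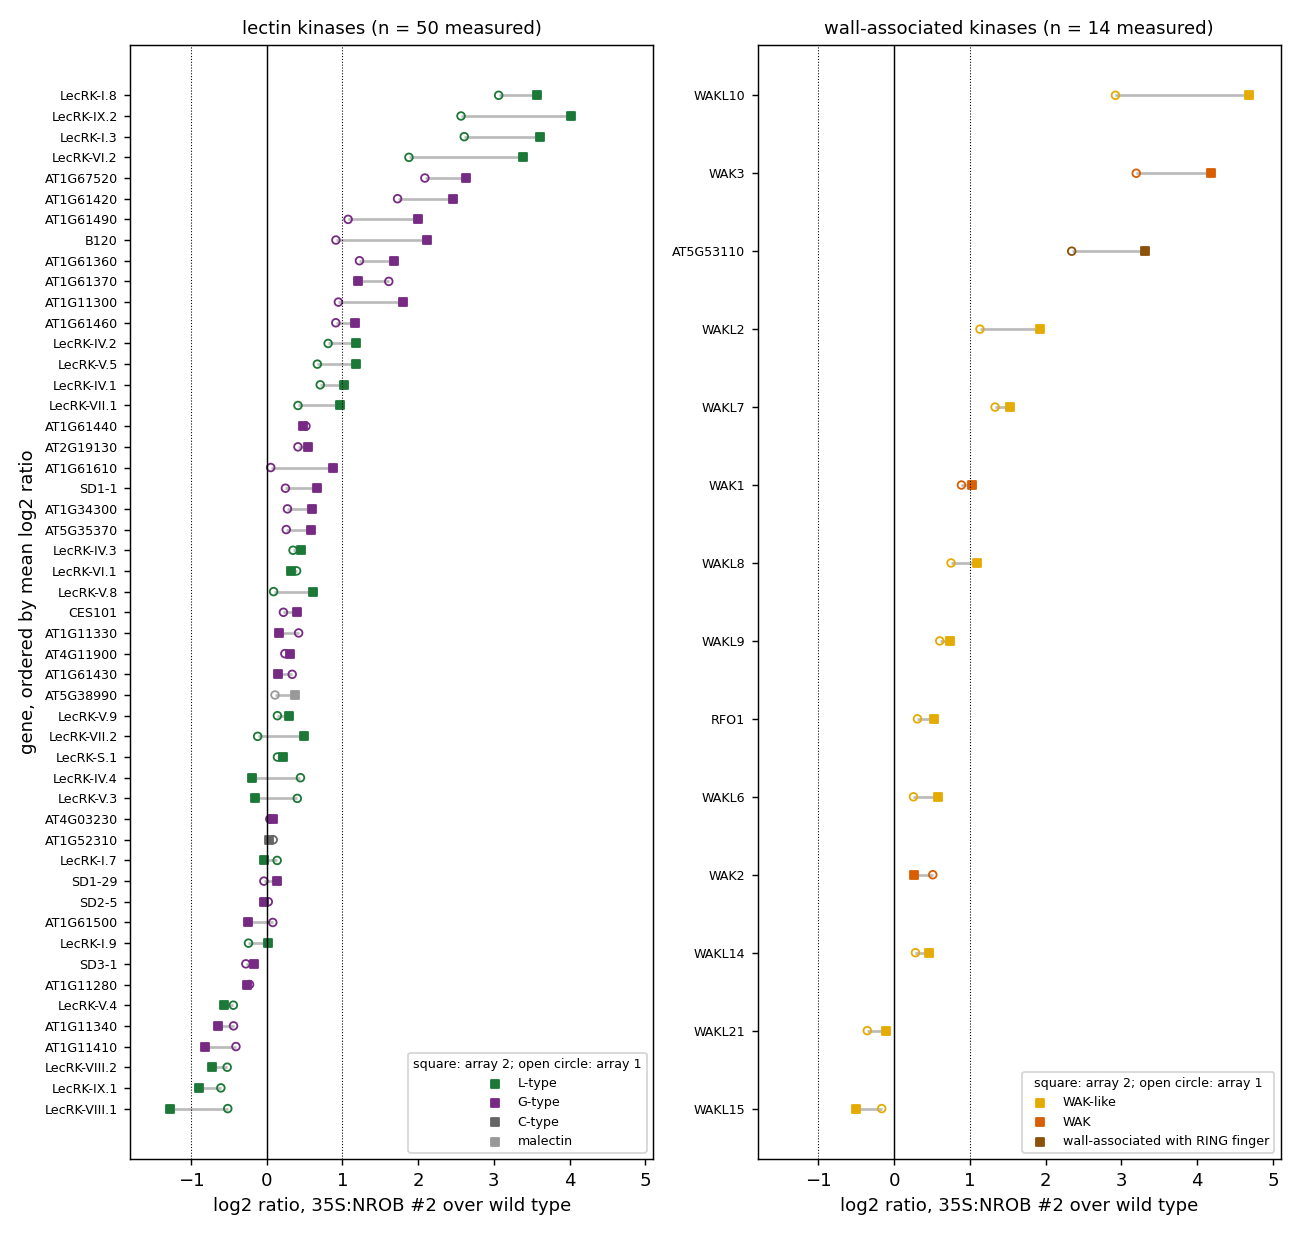
Log2 ratio of 35S:NROB #2 over wild type (horizontal axis) of the 64 measured kinases, for lectin and wall-associated kinases. Each gene has 1 row, ordered by mean, with a point for each of the 2 arrays and a line that joins them. The highest means are 3.32 among lectin kinases (LecRK-I.8) and 3.80 among wall-associated kinases (WAKL10), while no mean lies more than 2-fold below wild type.

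Among the L-type kinases, 4 of the 22 measured genes met the fold rule and the median log2 ratio was 0.28. LecRK-I.8 (AT5G60280), known as a receptor for extracellular NAD+ and for a part in responses to insect eggs, had intensities of 378 and 559 in 35S:NROB #2, against 45.3 and 47.0 in wild type. It rose by a log2 ratio of 3.32 ± 0.36, or 9.97-fold (limma adjusted p = 0.0414). The call was lost when genes flagged P on at least 1 array were tested, a choice made after seeing the flags (limma adjusted p = 0.0596). With the channels unpaired, the limma adjusted p was 9.89e-39, the lowest value of any setting. That setting ignores that both channels share an array, so its p-value does not measure the spread of the ratios between arrays. The gene was among those dropped with the dim quartile. A second probe at its locus, whose description names no kinase, was dim in both genotypes, at 7.83 and 8.83 against 7.90 and 8.23.

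LecRK-IX.2 (AT5G65600), which acts in resistance to bacteria and to Phytophthora, had 226 and 558 in 35S:NROB #2, against 38.2 and 34.3 in wild type. Its log2 ratio was 3.29 ± 1.03, with 2.57 and 4.02 on the arrays (limma adjusted p = 0.0546). LecRK-I.3 (AT3G45410) had 339 and 725, against 55.6 and 59.6, for a log2 ratio of 3.11 ± 0.70 with a limma adjusted p of 0.0516. The wild-type values of both genes and of LecRK-I.8 sat near the floor of measured spots. The lowest wild-type intensity of such spots was 28.0 on array 1 and 25.4 on array 2.

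LecRK-VI.2 (AT5G01540), needed for priming of immunity against bacteria, was clearly measured in both genotypes. Its intensities were 1265 and 2328 in 35S:NROB #2, against 344 and 224 in wild type. The log2 ratio was 2.63 ± 1.06, a 6.19-fold difference with the arrays far apart at 1.88 and 3.38, and it missed the threshold (limma adjusted p = 0.0638).

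The other 18 L-type kinases with the flag P on both arrays lay within 2-fold. The brightest lectin kinase, LecRK-IV.1 (AT2G37710), had 19575 and 26551 in 35S:NROB #2, against 11993 and 13108 in wild type, a log2 ratio of 0.86 ± 0.22 with a limma adjusted p of 0.0661. LecRK-IV.2 (AT3G53810), known for a part in pollen development, stood just under the rule at 1.00 ± 0.26, with intensities of 1041 and 1533 against 593 and 675. LecRK-V.5 (AT3G59700), a regulator of stomatal immunity, had 214 and 345 against 135 and 153, a log2 ratio of 0.92 ± 0.36.

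The receptors of extracellular ATP were not higher in 35S:NROB #2 on both arrays. LecRK-I.9 (AT5G60300), also called DORN1, had 471 and 571 in 35S:NROB #2, against 556 and 562 in wild type, a log2 ratio of -0.11 ± 0.19 with opposite signs on the arrays. LecRK-I.5 (AT3G45430), its relative that also senses ATP, had the flag P on array 1 alone, with 54.2 and 35.1 in 35S:NROB #2 against 73.9 and 108 in wild type. These genes, like those of the next paragraph, were picked out after their values were seen.

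No measured lectin kinase was 2-fold lower. The lowest was LecRK-VIII.1 (AT3G53380), with 169 and 133 in 35S:NROB #2, against 241 and 323 in wild type, a log2 ratio of -0.90 ± 0.54 with a limma adjusted p of 0.0990. LecRK-VIII.2 (AT5G03140), the other gene of that clade, had 1420 and 1384 against 2039 and 2281, a log2 ratio of -0.62 ± 0.14 with a limma adjusted p of 0.0774. LecRK-IX.1 (AT5G10530), known like LecRK-IX.2 for Phytophthora resistance, had 92.0 and 86.6 against 140 and 161, a log2 ratio of -0.75 ± 0.20 with a limma adjusted p of 0.0720. The 2 genes of clade IX thus had ratios of opposite sign on both arrays, a difference that was not tested.

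Among the G-type kinases, 26 of 31 genes were measured, 8 of them met the fold rule and the median log2 ratio was 0.43. AT1G67520 had the largest ratio, with 288 and 489 in 35S:NROB #2 against 67.7 and 78.6 in wild type, a log2 ratio of 2.36 ± 0.39 with a limma adjusted p of 0.0516. AT1G61420 followed with 589 and 885 against 178 and 161, a log2 ratio of 2.09 ± 0.52 with a limma adjusted p of 0.0524. By their means both lay more than 4-fold above wild type. On the 2 arrays AT1G67520 had log2 ratios of 2.09 and 2.64, and AT1G61420 had 1.73 and 2.46, so array 1 alone put AT1G61420 under 4-fold.

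B120 (AT4G21390) had 181 and 294 in 35S:NROB #2, against 96.3 and 68.0 in wild type, a log2 ratio of 1.51 ± 0.85 made of 0.91 and 2.11 (limma adjusted p = 0.0844). AT1G11300 (EGM1), named for shoot growth under mannitol stress, had 569 and 897 against 295 and 258, a log2 ratio of 1.37 ± 0.60 with a limma adjusted p of 0.0723. Its probes disagreed in size, since the dimmer of the 2 had a mean log2 ratio of 0.56. The remaining genes past the rule, AT1G61490, AT1G61360, AT1G61370 and AT1G61460, lay with AT1G61420 in 1 run of neighbouring genes on chromosome 1, described with the gene clusters.

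A few other G-type kinases are given for their known roles or their place in the order, picked after their values were seen except for SD2-5. SD1-29 (AT1G61380), also called LORE, the sensor of bacterial 3-hydroxy fatty acids, had 448 and 567 in 35S:NROB #2, against 460 and 518 in wild type, a log2 ratio of 0.05 ± 0.12. CES101 (AT3G16030), a gene of Fusarium wilt resistance, had 705 and 879 against 605 and 666, a log2 ratio of 0.31 ± 0.13 with a limma adjusted p of 0.175. SD2-5 (AT4G32300) was the lectin kinase nearest to 0, at -0.01 ± 0.04, with 1755 and 1985 against 1730 and 2042. At the low end, AT1G11410 had 2548 and 2310 against 3376 and 4062, a log2 ratio of -0.61 ± 0.29 with a limma adjusted p of 0.0985.

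Outside these classes, the C-type kinase AT1G52310 had a log2 ratio of 0.06 ± 0.04 and the measured malectin kinase AT5G38990 one of 0.24 ± 0.19. Across all 50 measured lectin kinases, 8 had opposite signs on the arrays, and these lay between -0.11 and 0.19.

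Of the 5 WAK genes, 3 were measured. WAK3 (AT1G21240) had 1200 and 1742 in 35S:NROB #2, against 131 and 96.1 in wild type, a log2 ratio of 3.69 ± 0.70, or 12.9-fold (limma adjusted p = 0.0516). WAK1 (AT1G21250), a receptor for pectin fragments, was the brightest wall-associated kinase, with 17463 and 21827 against 9440 and 10699. Its log2 ratio was 0.96 ± 0.10, just under the fold rule (limma adjusted p = 0.0549). WAK2 (AT1G21270), a pectin receptor with a part in cell expansion, had 1735 and 1970 against 1219 and 1645, a log2 ratio of 0.38 ± 0.18 with a limma adjusted p of 0.142.

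WAK4 (AT1G21210) and WAK5 (AT1G21230) were dim in both genotypes. WAK4 had 8.30 and 9.30 in 35S:NROB #2, against 8.82 and 9.11 in wild type, and WAK5 had 9.23 and 9.99 against 7.28 and 7.69. At these intensities no difference could be measured. One further probe, described as a WAK2 precursor but tied to no locus, was also dim, at 21.8 and 35.7 against 25.3 and 39.9.

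WAKL10 (AT1G79680) had the largest ratio of any measured kinase when no offset was added. It had 403 and 869 in 35S:NROB #2, against 53.2 and 33.8 in wild type. Its log2 ratio was 3.80 ± 1.25, or 14.0-fold, made of 2.92 and 4.69 (limma adjusted p = 0.0549). With the offset on every intensity its log2 ratio was 2.79, below WAK3 at 3.20. The wild-type values of WAKL10 sat near the lowest of measured spots, 28.0 on array 1 and 25.4 on array 2. Its neighbour RFO1 (AT1G79670), a gene of Fusarium wilt resistance, had 1324 and 1718 against 1071 and 1197, a log2 ratio of 0.41 ± 0.15 with a limma adjusted p of 0.123. The 2 adjoining genes thus differed widely in ratio while both kept the same sign.

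AT5G53110, the gene described with a RING finger, had 212 and 295 in 35S:NROB #2, against 41.8 and 29.7 in wild type, a log2 ratio of 2.83 ± 0.69 with a limma adjusted p of 0.0516. Its 4 probes had mean log2 ratios of 2.61 to 3.42, although 1 of them alone had the flag P on both arrays. WAKL2 (AT1G16130) had 64.2 and 104 against 29.3 and 27.4, a log2 ratio of 1.53 ± 0.56 with a limma adjusted p of 0.0638, with wild-type values at the floor. WAKL7 (AT1G16090) had 211 and 274 against 83.8 and 94.6, a log2 ratio of 1.43 ± 0.14 with a limma adjusted p of 0.0516.

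The other 7 WAK-like genes with the flag P on both arrays stayed within 2-fold. WAKL8 (AT1G16260) had 3680 and 5404 in 35S:NROB #2, against 2188 and 2527 in wild type, a log2 ratio of 0.92 ± 0.24 with a limma adjusted p of 0.0638. WAKL9 (AT1G69730) had 2900 and 3909 against 1911 and 2347, a log2 ratio of 0.67 ± 0.10, and its second probe gave 0.65. WAKL21 (AT5G66790), the wall-associated kinase nearest to 0, had 690 and 888 against 883 and 958, a log2 ratio of -0.23 ± 0.17. It and WAKL15 (AT3G53840), at -0.34 ± 0.24, were the measured wall-associated kinases that were lower on both arrays.

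**Figure D2:**
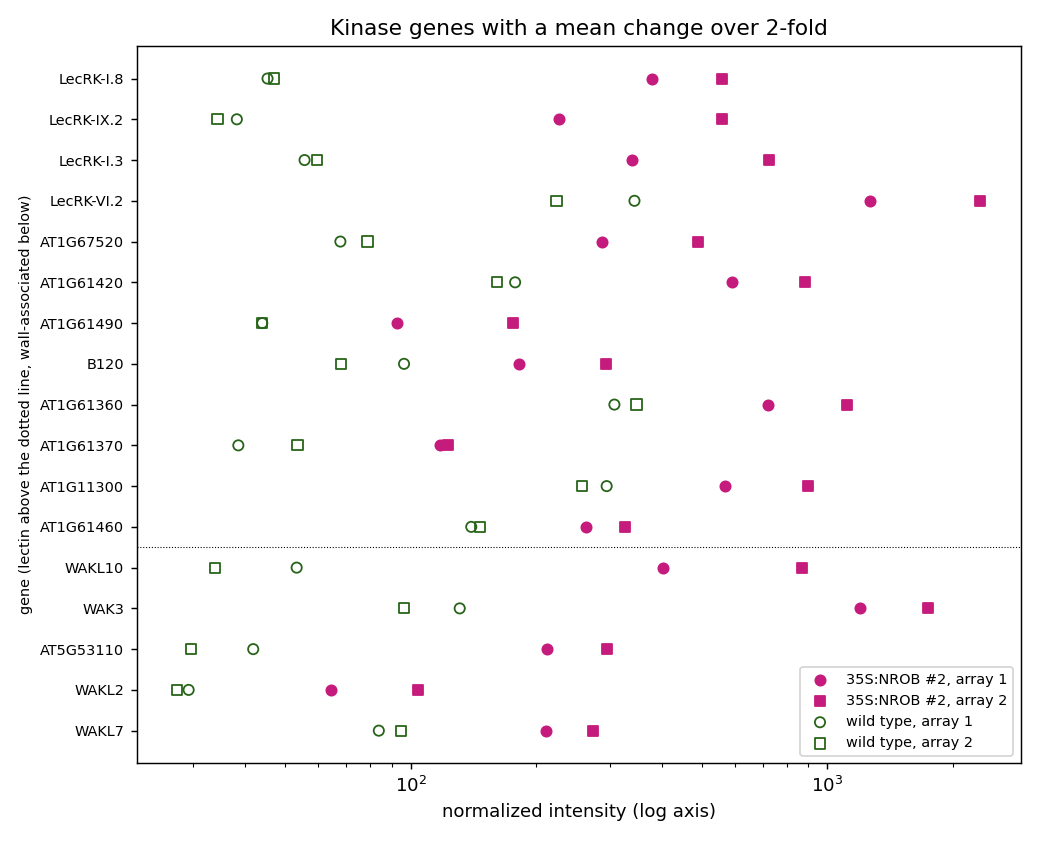
Intensity (horizontal, linear values on a log axis) of the 17 kinases past the fold rule, 1 row per gene. Each row has 2 points for 35S:NROB #2 and 2 for wild type. Lectin kinases stand above the dotted line and wall-associated kinases below it. Among the 17, intensities run from 64.2 to 2328 in 35S:NROB #2 and from 27.4 to 348 in wild type. The intensity of 1 gene cannot be set against that of another because their probes differ.

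No wall-associated kinase was called by limma, and the lowest adjusted p among them was 0.0516 in limma. Before adjustment, limma gave 12 of the 14 a p under 0.05, all higher, against 23 higher and 6 lower of the 50 lectin kinases. Past the fold rule stood 12 of 50 lectin kinases (24%) and 5 of 14 wall-associated kinases (35.7%), beside the 4.82% of all genes tested. Without the RING-finger gene, 4 of 13 wall-associated kinases (30.8%) met the rule, and their median log2 ratio was 0.67. Lower on both arrays were 8 lectin and 2 wall-associated kinases.

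The median log2 ratio was 0.33 for lectin kinases, with quartiles of 0.05 and 0.98, and 0.80 for wall-associated kinases, with quartiles of 0.39 and 1.50. On array 1 the medians were 0.27 for lectin and 0.68 for wall-associated kinases, and on array 2 they were 0.43 and 0.88. The difference of the medians, lectin minus wall-associated, was -0.47. It was -0.32 without the malectin and RING-finger genes and -0.13 without the dim quartile, where the wall-associated median was 0.41 over 7 genes. The ranges overlapped over most of their length, from -0.90 to 3.32 in lectin and from -0.34 to 3.80 in wall-associated kinases. Members of a family are not replicates, so the types were compared without a test.

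**Figure D3:**
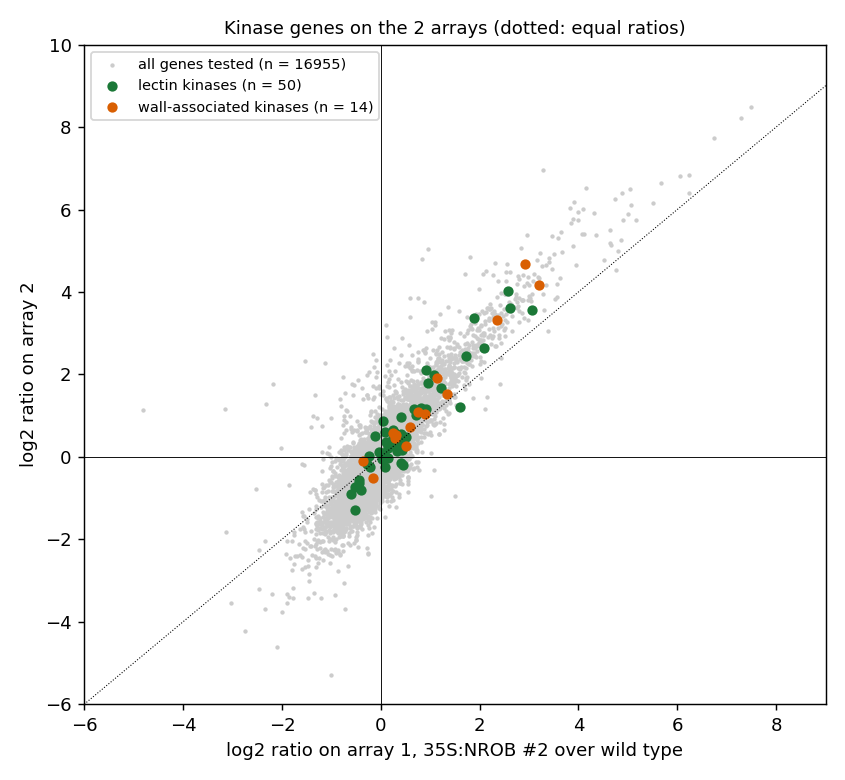
Log2 ratio of 35S:NROB #2 over wild type on array 2 (vertical axis) against array 1 (horizontal axis) for the 64 measured kinases, with lectin and wall-associated genes marked apart and a line of equal ratios. Most points with high ratios lie above the line, since 16 of the 17 kinases past the fold rule had the larger ratio on array 2.

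The flag filter left out 39 kinases, 27 lectin and 12 wall-associated. Of these, 27 were dim in both genotypes, 16 lectin and 11 wall-associated, with no intensity above 43.8. Another 4 genes were bright in 35S:NROB #2 and dim in wild type on both arrays, all of them lectin kinases, and 1 lectin kinase was bright in wild type alone. A further 4 had the flag P on 1 array, and 3 were bright in some of the channels.

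For the genes bright in 1 genotype alone, a fold was taken against a floor and averaged over the arrays. The floor was the lowest intensity of spots flagged P in the channel of the dim genotype, or the gene's own value there where that was higher. It is no strict limit of detection, since the dimmer channel of spots flagged A reached 50.1 on array 1 and 66.0 on array 2. LecRK-VI.3 (AT5G01550), which with its neighbours LecRK-VI.2 and LecRK-VI.4 acts in the abscisic acid response of germinating seeds, had 422 and 1134 in 35S:NROB #2, against 17.2 and 25.8 in wild type. That was 25.7-fold above the floor. AT1G61480 had 141 and 319 against 6.69 and 5.98, or 7.94-fold above the floor. LecRK-S.5 (AT5G06740) had 65.5 and 203 against 5.94 and 7.10, or 4.32-fold above the floor. These genes entered no test with the flag filter.

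LecRK-VI.4 (AT5G01560) had 60.5 and 92.4 in 35S:NROB #2, against 7.34 and 9.52 in wild type, or 2.80-fold above the floor. A second probe at its locus, whose description names no kinase, had the flag P on both arrays with log2 ratios of 0.14 and -0.08, so the probes of this gene disagree. In the other direction, LecRK-S.7 (AT5G55830) had 36.4 and 20.9 in 35S:NROB #2, against 81.0 and 99.3 in wild type. Wild type was there 2.08-fold above the floor.

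Among the genes flagged P on 1 array or bright in some of the channels, values lay on both sides. LecRK-I.1 (AT3G45330), flagged A on both arrays, had 45.6 and 105 in 35S:NROB #2, against 6.59 and 6.26 in wild type. AT1G61550, with the flag P on array 2 alone, had 131 and 240 against 20.9 and 31.5. WAKL18 (AT4G31110), flagged A on both arrays, was the reverse, with 15.7 and 10.6 in 35S:NROB #2 against 50.5 and 53.7 in wild type, which lies near the floor of measured spots.

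Many of the kinases sit side by side in the genome, and 8 clusters of at least 3 genes of 1 class were found when members separated by at most 5 protein-coding genes were joined. Neighbours of this kind arose by duplication and can be alike in sequence, and whether a probe also binds a neighbour's transcript was not tested, because probe sequences were not used here. The largest cluster held 12 G-type kinases from AT1G61360 to AT1G61550 on chromosome 1. Of its 9 measured genes, 5 met the fold rule, at log2 ratios of 1.04 to 2.09, and AT1G61480 was bright in 35S:NROB #2 alone.

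Within that cluster AT1G61360 had 720 and 1114 in 35S:NROB #2, against 308 and 348 in wild type, a log2 ratio of 1.45 ± 0.32 with a limma adjusted p of 0.0545. AT1G61370 next to it had 118 and 123 against 38.5 and 53.4, a log2 ratio of 1.41 ± 0.29, and was the 1 kinase past the rule with the larger ratio on array 1. AT1G61490 had 92.7 and 175 against 44.0 and 44.0, a log2 ratio of 1.54 ± 0.65. AT1G61460 had 263 and 327 against 140 and 146, at 1.04 ± 0.18, but its second probe gave 0.58. The other 4 measured genes of the run lay between -0.08 for AT1G61500 and 0.50 for AT1G61440, with SD1-29 at 0.05, and AT1G61550, flagged P on array 2 alone, had the higher intensities in 35S:NROB #2 given above.

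In the WAK1 to WAK5 cluster the 3 measured genes had log2 ratios of 0.38 to 3.69. The LecRK-VI cluster on chromosome 5 held LecRK-VI.2 at 2.63 beside LecRK-VI.3 and LecRK-VI.4, both bright in 35S:NROB #2 alone on their member probes. The LecRK-I genes of chromosome 5 included LecRK-I.8 at 3.32 beside LecRK-I.9 at -0.11 and LecRK-I.7 at 0.05, while of the 6 LecRK-I genes on chromosome 3 LecRK-I.3 alone was measured. In the G-type cluster from AT1G11280 to AT1G11340 all 4 genes were measured and lay between -0.54 and 1.37. The WAK-like cluster from AT1G16090 to AT1G16160 had 3 of 6 genes measured, at 0.41 to 1.53, and the LecRK-V cluster had 2 of 4, at 0.35 and 0.92.

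**Figure D4:**
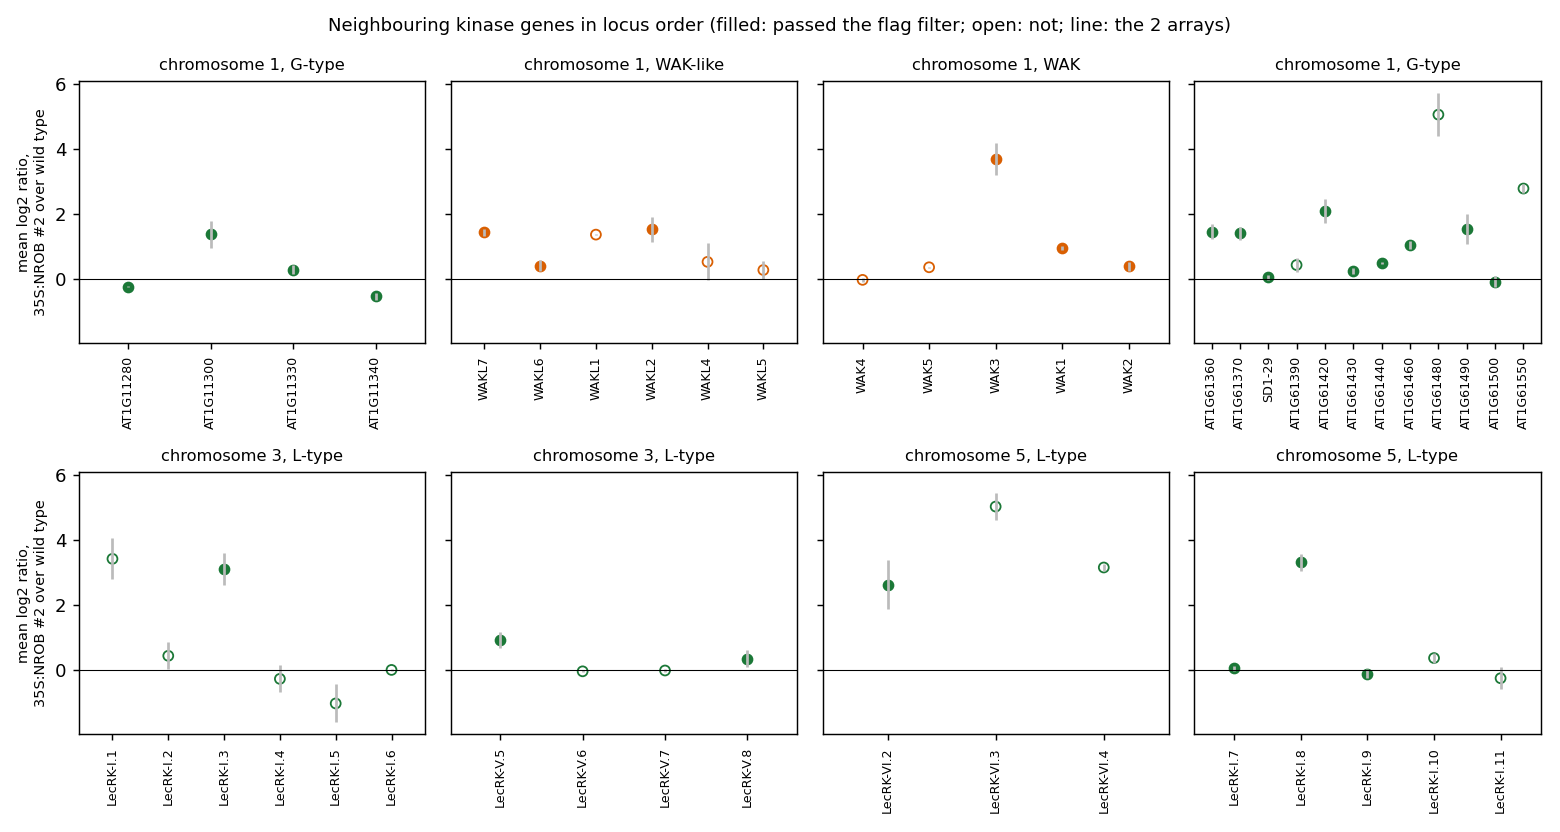
Mean log2 ratio of 35S:NROB #2 over wild type of the kinases in the 8 clusters of neighbouring genes, 1 panel per cluster, with genes in locus order. Filled points are genes flagged P on both arrays, open points are the others at their own mean ratio, and a line joins the 2 arrays. Measured genes span -0.11 to 3.32 in the LecRK-I cluster of chromosome 5, -0.08 to 2.09 in the G-type cluster of 12 genes and 0.35 to 0.92 in the LecRK-V cluster.

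A list of 19 genes of immunity and the cell wall was read from the same fit, and all 19 were measured. Some of them are known to act with or below these receptors, but not all. None was called by limma, 2 met the fold rule and 0 were lower by it. On both arrays, 16 were higher and 1 was lower. For comparison, the whole fit of 16955 genes had 4.82% past the fold rule upward and 2.84% downward. In that fit 37.8% had positive ratios on each array and 43.3% negative ones. Limma calls there came to 0.236% on the higher side and 0.0177% on the lower side. The median log2 ratio of the list was 0.25, against 0.41 over the 64 kinases and -0.03 over all genes tested. FRK1, a receptor kinase gene induced early by flagellin, had 2091 and 3644 in 35S:NROB #2, against 141 and 67.1 in wild type, a log2 ratio of 4.82 ± 1.33 with a limma adjusted p of 0.0519.

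BIK1, a cytoplasmic kinase that relays signals of immune receptors, had 1222 and 1978 in 35S:NROB #2, against 745 and 753 in wild type, a log2 ratio of 1.05 ± 0.48 with a limma adjusted p of 0.0774. WRKY33, a defence transcription factor, stood at 1.00 ± 0.64, just under the rule. The extracellular partner of WAK1, the glycine-rich protein GRP3, stood at 0.77 ± 0.54, and PGIP1, an inhibitor of pectin-degrading enzymes of pathogens, at 0.68 ± 0.48. KAPP, a phosphatase that binds WAK1 in a complex with GRP3, stood at -0.03 ± 0.13.

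The other genes of the list had log2 ratios between -0.32 and 0.50. The MAP kinases MPK3 and MPK6 stood at 0.26 ± 0.04 and 0.10 ± 0.02, and their kinases MKK4 and MKK5 at 0.30 ± 0.06 and 0.22 ± 0.09. The co-receptor BAK1 stood at 0.24 ± 0.08, the chitin receptor CERK1 at 0.45 ± 0.08 and the NADPH oxidase RBOHD at 0.21 ± 0.20. NDR1, a membrane protein of resistance signalling, had a log2 ratio of 0.50, PGIP2 one of 0.25, and the receptor kinase FER one of 0.11. The 3 cytoplasmic kinase genes of the list, AT5G15080, AT3G28690 and AT3G01300, had 0.18, 0.04 and -0.32.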

How the data were processed

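Leaf RNA was amplified, labelled and put on 2 Agilent arrays of 2 colours, per the labels' protocols. The submitters' processing notes list Agilent Feature Extraction, version 8.5.1.1. Per the file headers, the authors deposited linear normalized intensity values for both channels and their log2 ratio. The steps of background correction and normalization are details not given in the sources used here. Each spot carries a deposited flag letter, and P was read as measured from the intensities: the dimmer channel of A spots never passed 50.1 (array 1) or 66.0 (array 2). The table has 43603 gene probes besides 60 controls, and 36687 of them were tied to a locus with the RefSeq table of TAIR10.1 (34348 by accession, 1414 by locus, 212 by a locus the table lacks, 713 by symbol). One header of a wild-type channel also carries the transgene's name, and the deposited ratio settled its reading.

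The ratio was turned to 35S:NROB #2 over wild type. Genes took their brightest probe flagged P on both arrays, by mean log2 intensity. They were fitted with limma 3.58.1 in R 4.3.3 (intercept fit, eBayes, 2.72 prior degrees of freedom), with Benjamini-Hochberg adjustment over all 16955 genes, and the fit was tested on simulated data. The ratio pairs the samples, since both genotypes of a replicate share an array.

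Members and lists were chosen with earlier results of these data known. Named were, per type, the 12 highest and 6 lowest genes past the fold rule, limma calls, WAK1 to WAK5, the gene nearest to 0, the brightest gene and the list of 19. Other genes were named after their values were seen. Alternatives covered normalization, an offset of 50, the choice of probe, filters, the pairing and each array left out. Sequences were not used here, so the planned description of promoters and proteins was left out.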

Additional observations from a re-analysis of the deposited data

How the results depend on the processing

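No called result changed direction under any alternative run, and these values moved. Median centring, loess, an offset of 50, the mean of a locus's probes, no flag filter, the lower quartile of intensity left out and no replicate block (the channels unpaired, which drops the pairing on an array) gave 529, 512, 522, 462, 1091, 235 and 1474 genes called higher by limma, against 40. In the same order they gave 180, 156, 216, 148, 441, 86 and 1469 called lower, against 3, and 13, 13, 12, 12, 20, 2 and 24 kinases called higher, against 1. Kinases called lower were 1 with no flag filter and 2 with no replicate block, against 0. Genes flagged P on at least 1 array, a choice made after seeing the flags, gave 26 higher, 1 lower and 0 kinases called. Of 22 measured kinases named by rule, 12 came past the threshold with median centring, with loess or with no flag filter, 11 with the offset or the mean of probes, 18 with no replicate block and 2 without the lower quartile. The cause was not tested. Leaving out the lower quartile, which removes 30 of the 64 kinases, left 3 lectin and 0 wall-associated kinases past the fold rule, a wall-associated median of 0.41 and a difference of medians of -0.13. With no flag filter, 76 lectin and 26 wall-associated kinases entered: 2 lectin and 1 wall-associated kinases were lower by the fold rule, the wall-associated median was 0.40 and the difference -0.14. The difference was -0.42 with the offset and -0.32 without malectin and RING-finger genes, a choice made after seeing the descriptions. Genes flagged P on at least 1 array gave 1 lectin kinase lower by the fold rule. Over the arrays left out in turn, which leave no test, lectin medians were 0.27 to 0.43, lectin kinases past the rule 9 to 15 higher and 0 to 1 lower, wall-associated medians 0.68 to 0.88, wall-associated kinases past the rule 5 to 7, and the difference -0.45 to -0.41. The number of arrays, 2, limits precision throughout, and near the floor of measured spots a ratio depends on a few units of intensity.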
